A study of Mus musculus with 2 samples.

Results

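All 39 mouse Hox genes were followed through the stromal cell classes of transplanted intestine. They were taken by name, as every symbol made of Hox, a letter from a to d and 1 or 2 digits, and they make up 39 of the 28692 features of each library. The naming rule uses no measured value, though the set was picked for study with earlier results of these data known. The set holds 11 genes of the HoxA cluster, 10 of HoxB, 9 of HoxC and 9 of HoxD.

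Hox genes encode homeodomain transcription factors that give cells their position along the head-to-tail axis. They lie in clusters in which the order on the chromosome matches the order of the body levels where they are used, and genes at the same place in different clusters form a paralogue group. Low-numbered (anterior) groups are used nearer the head and high-numbered (posterior) groups nearer the tail, and in the gut the mesenchyme keeps such a code, with posterior genes typical of the hindgut that forms the colon.

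Single-cell RNA-seq had been performed on mesenchymal stromal cells of small intestinal (SI) and large intestinal (LI) grafts, with 1 library of each. The grafts were small or large intestine of E12.5 embryos from EYFP males crossed to C57BL/6Nrj females, grafted beneath the capsule of the kidney in adult wild-type (WT) mice and taken 4 weeks later. Live cells positive for EYFP and Itgb1 had been sorted, without cells carrying CD45, Ter119, BP3, CD31, EpCAM or L1CAM, so immune, erythroid, endothelial, epithelial and glial cells and BP3+ cells had been gated out. Colonic grafts had been pooled, the number of SI grafts is not given in the sources used here, and neither source states which library was made with a 3′ and which with a 5′ kit. Tissue of origin and library therefore cannot be told apart, no test between groups was possible, and all intervals below are 95% intervals that cover counting error only.

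The LI library held 63348069 unique molecular identifiers (UMIs, 1 per captured RNA molecule) in 11568 barcodes and the SI library 54918006 in 9631. Barcodes were kept if they had 500 genes or more and no more than 10% of UMIs from mitochondrial genes, which left 9873 (85.3%) and 7910 (82.1%), with medians of 5288 and 5682 UMIs. Among them 38 Hox genes had a UMI in LI and 31 in SI. The libraries shared 26 barcodes, and leaving these out moved none of 84 values compared beyond its interval.

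Classes were set by marker UMIs. In LI and SI there were 4688 and 3917 fibroblasts (Pdgfra with Dcn or Lum), 539 and 993 muscle cells (Myh11 with Actg2 or Des), and 304 and 470 pericytes (Rgs5 with Notch3). Interstitial cells of Cajal (ICC), the pacemaker cells of the gut wall, were taken by Kit with Ano1 and numbered 257 and 49. Mesothelial cells (Msln, Upk3b, Upk1b, Lrrn4) numbered only 19 and 11. A further 4006 and 2453 barcodes met no gate. The ICC gate was checked on genes it did not use. Etv1, an ICC transcription factor, stood at 1015 and 1004 CPM (a gene's UMIs in a class, scaled to a common total of all its UMIs), and Prkcq at 348 and 515 CPM, while Elovl7 was low, at 2.64 and 12.8 CPM. LI ICC also held UMIs of fibroblast marker genes. Pdgfra was at 128 CPM, 43.9% of its fibroblast level, and Dcn at 7.55% of its fibroblast level. In SI ICC Pdgfra was at 4.25 CPM (1.0%) and Dcn at 3.75%. Cells that also met the fibroblast gate were left out, which limits Dcn in ICC with a Pdgfra UMI. The source of this RNA was not tested. The pericyte gene Rgs5 was at 737 CPM in LI ICC and 162 CPM in SI ICC, against 4322 CPM in LI pericytes.

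The clusters lie on 4 chromosomes in GRCm38 (mm10, GENCODE vM21). HoxA spans 105 kb of the minus strand at chr6:52155590-52260880, HoxB 174 kb of the plus strand at chr11:96194316-96368256, HoxC 116 kb of the plus strand at chr15:102921103-103036852, and HoxD 96.8 kb of the plus strand at chr2:74668310-74765142. Hoxd3 and Hoxd4 share 62.3% and 52.3% of their exon bases with other features of the same strand, so their counts are uncertain. Summed by cluster, HoxD stood furthest apart between classes in LI, though among single genes Hoxa11 also stood far apart. The 250 bases before the start of the RefSeq transcripts (GRCm38.p6, plus strand, 5′ to 3′) of 5 HoxD genes are therefore shown. Hoxd3, which starts between Hoxd8 and Hoxd4 and has 1 such motif, is left out. Hoxd11 has a pair of RefSeq starts, of which the upstream one is shown. Capitals mark TTTATG, a motif bound by posterior Hox proteins, or its reverse complement.
Hoxd4: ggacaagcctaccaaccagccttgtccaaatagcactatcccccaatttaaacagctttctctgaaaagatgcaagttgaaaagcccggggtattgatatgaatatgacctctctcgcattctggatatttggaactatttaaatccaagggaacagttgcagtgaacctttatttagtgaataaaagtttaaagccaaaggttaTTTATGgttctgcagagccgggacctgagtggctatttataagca
Hoxd8: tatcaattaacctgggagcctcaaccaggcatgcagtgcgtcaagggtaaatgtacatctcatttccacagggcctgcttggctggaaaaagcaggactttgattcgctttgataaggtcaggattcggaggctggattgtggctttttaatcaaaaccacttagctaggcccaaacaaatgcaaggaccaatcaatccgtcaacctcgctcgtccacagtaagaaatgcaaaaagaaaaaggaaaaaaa
Hoxd9: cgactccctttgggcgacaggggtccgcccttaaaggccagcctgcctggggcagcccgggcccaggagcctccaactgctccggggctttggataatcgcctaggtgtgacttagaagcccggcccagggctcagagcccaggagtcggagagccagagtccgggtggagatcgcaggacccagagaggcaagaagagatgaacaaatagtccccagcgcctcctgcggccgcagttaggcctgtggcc
Hoxd10: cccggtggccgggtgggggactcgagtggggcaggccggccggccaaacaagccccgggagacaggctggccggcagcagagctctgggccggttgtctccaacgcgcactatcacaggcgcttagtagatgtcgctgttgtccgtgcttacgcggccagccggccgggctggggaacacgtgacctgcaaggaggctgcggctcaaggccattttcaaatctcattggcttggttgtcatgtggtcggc
Hoxd11: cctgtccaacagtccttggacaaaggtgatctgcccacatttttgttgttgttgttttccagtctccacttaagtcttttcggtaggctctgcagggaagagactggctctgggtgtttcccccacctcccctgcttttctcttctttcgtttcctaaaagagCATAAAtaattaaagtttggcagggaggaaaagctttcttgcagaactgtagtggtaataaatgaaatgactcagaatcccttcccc
These stretches are chr2:74721728-74721977 for Hoxd4, chr2:74704365-74704614 for Hoxd8, chr2:74697513-74697762 for Hoxd9, chr2:74691641-74691890 for Hoxd10 and chr2:74679308-74679557 for Hoxd11. Hoxd9 and Hoxd10 are rich in CpG, with 13 and 20 CpG and a GC content of 65.2% and 65.6%. The stretches of Hoxd4 and Hoxd8 hold 3 and 6 CpG and that of the upstream Hoxd11 start 2. The window of the other Hoxd11 start, chr2:74682073-74682372 and thus 300 bases, holds 25 CpG, 0 TTTATG and 1 TGATTNAT. A promoter was found for 22 of the 39 genes, with 24 starts in all, in windows of 300 bases (250 before and 50 after the start). TTTATG on either strand was in 5 of the 24 (20.8%), against 11.9% of all 32851 promoters. TGACAG, the site of the Meis partners of Hox proteins, was in 2 (8.33%), against 19.2%. TGATTNAT, a joint site of Pbx and Hox proteins, was in 2 (8.33%), against 3.22%. The median was 14.5 CpG in the Hox promoters and 7 in all promoters. A match describes the letters only.

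Every stromal class carried Hox RNA, and the summed level was highest in ICC of both libraries. In LI the 39 genes summed to 531 CPM in fibroblasts, 568 in muscle, 681 in pericytes and 1899 in ICC. In SI the sums were 504, 606, 692 and 1297 CPM. Summed over all cells the order of the classes was the same in both libraries. In the male cells of LI alone, which are few (sexes were told apart by Xist and Y-linked UMIs, below), muscle was at 389 and fibroblasts at 408 CPM, a ratio of 0.952 whose interval (0.729 to 1.22) spans 1. The few mesothelial cells summed to 865 CPM (interval 700 to 1058) in LI and 781 CPM (599 to 1002) in SI. In female SI cells alone mesothelium, with 3 cells and 18 Hox UMIs, was at 1435 CPM (850 to 2268), no longer below ICC at 1369 CPM (1188 to 1570). Immune cells left in the sort, a class that should lack this stromal code, held 2 Hox UMIs in 22 LI cells (14.3 CPM, 1.74 to 51.8) and 1 in 12 SI cells (15.3 CPM, 0.388 to 85.3). They were taken by Ptprc, with no Pdgfra UMI and few of Dcn and Lum. Barcodes with much free stromal RNA were thereby left out, so these values can understate free RNA.

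**Figure D1:**
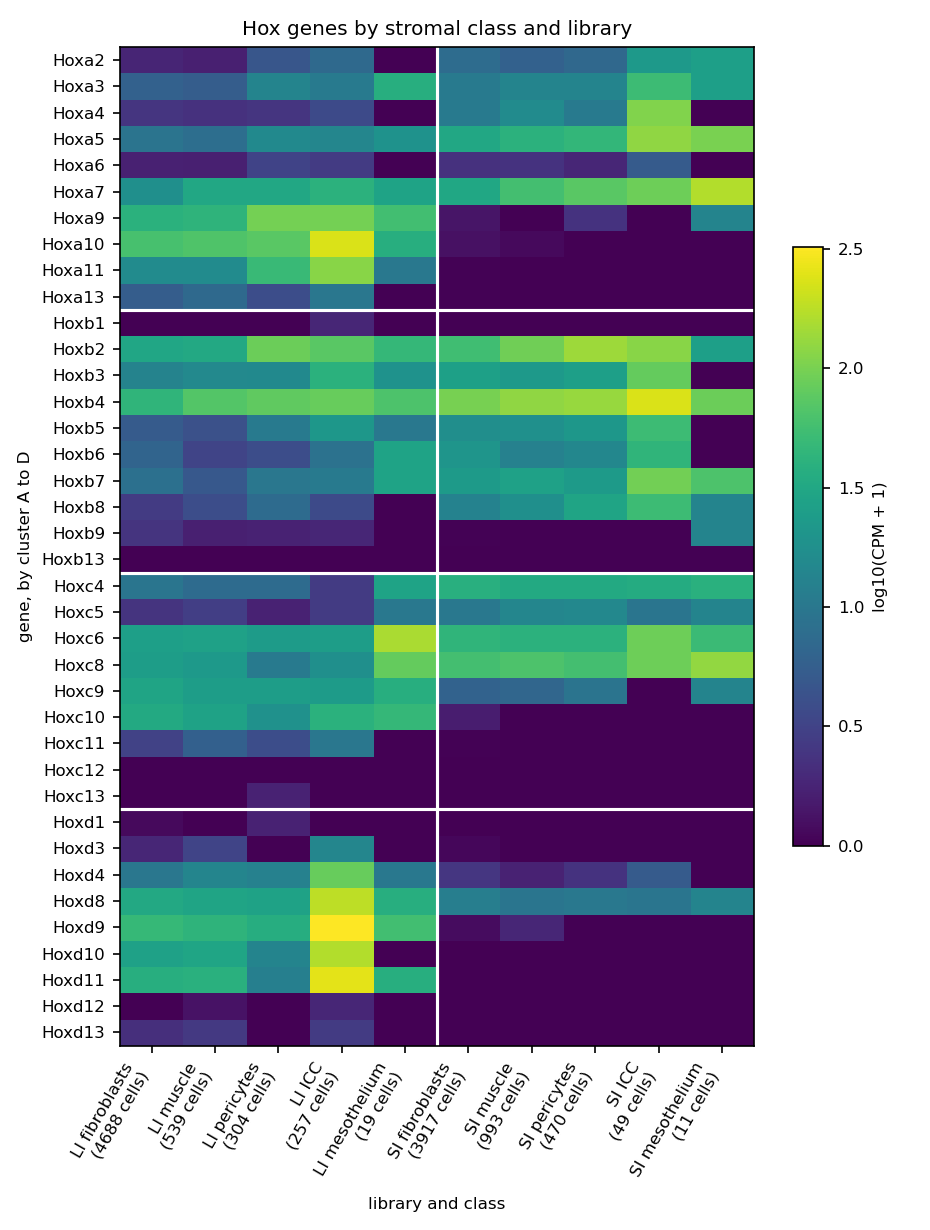
Level of 38 Hox genes (rows, by cluster and paralogue group) in the 5 stromal classes of the LI and SI libraries (columns), as the log10 of pooled CPM plus 1. Genes of groups 9 to 11 in HoxA and HoxD, with Hoxc9 and Hoxc10, stand out in the LI columns and, apart from Hoxc9, are near 0 in SI fibroblasts, muscle, pericytes and ICC, and the LI ICC column is brightest over the HoxD genes, with Hoxd9 at 323 CPM.

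What the libraries differed in was the paralogue groups, and the difference was present in all 4 classes of at least 49 cells. Groups 9 to 13 supplied 55.4% of the Hox UMIs of LI fibroblasts, 51.9% in muscle, 47.9% in pericytes and 66.7% in ICC. In SI they supplied 1.34%, 1.11% and 1.39% in fibroblasts, muscle and pericytes, and 0 of 305 Hox UMIs in ICC, for which the interval ends at 1.20%. In mesothelium the share was 31.6% in LI (22.4 to 41.9) and 4.84% in SI, which is 3 UMIs (1.009 to 13.5). No interval of an LI class reached that of an SI class.

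**Figure D2:**
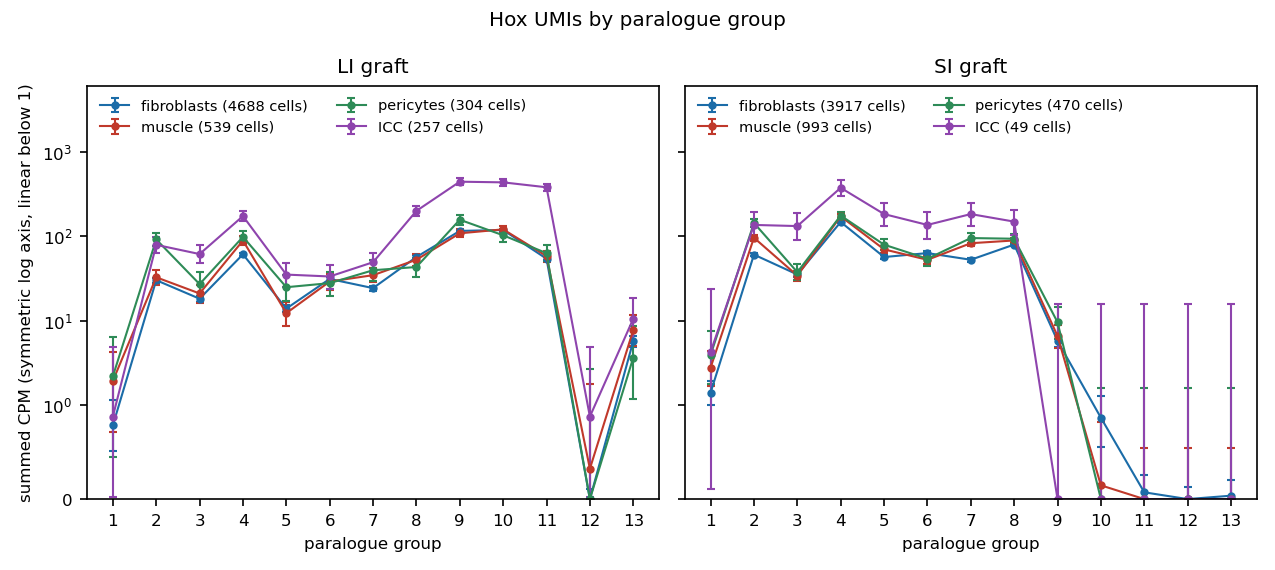
Summed level of each paralogue group (x axis, 1 to 13) in fibroblasts, muscle, pericytes and ICC, in CPM on a symmetric log axis with 95% counting intervals, for LI and SI. SI profiles fall off after group 8, whereas LI profiles stay high through group 11.

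Counted gene by gene, a Hox gene was called different between libraries when its level differed at least 2-fold, with 1 CPM added to each level and at least 10 CPM in a library. In muscle 10 of 25 Hox genes so tested were called higher in LI and 11 higher in SI, where 2.02% and 2.63% of all genes were. In pericytes 10 of 24 were higher in LI and 9 higher in SI, against 2.77% and 2.81% of all genes. In ICC, where the 49 SI cells make many genes scatter, 11 of 26 were higher in LI and 14 higher in SI, against 16.9% and 8.93% of all genes. In fibroblasts 9 of 21 were called in each direction, against 1.8% and 1.73% of all genes. For the Hox genes tested, the median log2 of LI over SI was below 0 in each class, at -0.81 in fibroblasts, -0.85 in muscle, -0.68 in pericytes and -1.10 in ICC, where the medians of all genes were -0.03, -0.01, 0.00 and 0.11.

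The calls followed the paralogue groups. Called higher in LI in all 4 classes were 9 genes, Hoxa9, Hoxa10, Hoxa11, Hoxc9, Hoxc10, Hoxd8, Hoxd9, Hoxd10 and Hoxd11. Hoxd4 was called in 3 of the 4 classes and Hoxd3 in ICC alone, so that the genes higher in LI in at least 1 class were 8 of groups 9 to 13 and 3 of groups 1 to 8, and these 3 were all HoxD genes. Called higher in SI in all 4 classes were 7 genes, Hoxa5, Hoxb5, Hoxb6, Hoxb7, Hoxb8, Hoxc4 and Hoxc8. Counting any class, 16 genes were higher in SI, all of groups 1 to 8 and none of HoxD.

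Among the posterior genes, which in development pattern the hindgut and hind body, Hoxa10 stood at 64.3 CPM in LI muscle and 0.147 in SI muscle, and at 72.6 and 0 CPM in pericytes, at least 55.4-fold higher in LI when 3 UMIs are taken as the limit for a count of 0. Its neighbour Hoxa9 was at 42.0 and 0 CPM in muscle, at least 95.6-fold higher in LI. Hoxa11 was at 49.1 and 0 CPM in pericytes, at least 37.5-fold. In muscle Hoxd11 reached 38.2 and Hoxd10 29.1 CPM in LI, at least 86.8-fold and 66.2-fold above SI, where neither had a UMI. In ICC the limits were lower because SI held few cells. Hoxd9 (323 CPM), Hoxd11 (257), Hoxa10 (232) and Hoxd10 (164) were in LI ICC at least 25.3-fold, 20.1-fold, 18.2-fold and 12.8-fold above SI ICC, where all 4 had 0 UMIs.

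Hoxc9 was the posterior gene that SI cells also carried, at 5.13 CPM in SI fibroblasts and 8.29 in SI pericytes, below the 28.4 and 24.2 CPM of the LI classes. Group 13, the most posterior genes and in the embryo those of the terminal hindgut, was low in every class. Hoxa13 was at 4.56 CPM in LI fibroblasts, 6.14 in LI muscle and 8.79 in LI ICC, and had 1 UMI in SI fibroblasts. In the PDGFRAhi subset of LI fibroblasts (below) it was higher, at 13.7 CPM in female and 13.5 in male cells, the latter from 3 UMIs. Hoxd13 had 39 UMIs in LI fibroblasts (1.18 CPM) and 0 in SI fibroblasts. Hoxb13 had 0 UMIs in fibroblasts, muscle, pericytes and ICC of both libraries, and Hoxc13 had 1, in LI pericytes. No gene of groups 12 and 13 reached 10 CPM in a class of at least 50 cells. Over all groups 26 of the 39 genes did, and 9 did not beside the 4 of group 13, among them Hoxb9, Hoxc11, Hoxc12 and Hoxd12.

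Among the anterior and middle genes, Hoxb4 was the highest HoxB gene of SI fibroblasts, muscle and ICC, at 98.5 CPM in SI fibroblasts and 42.4 in LI fibroblasts, 124 and 68.2 in muscle, and 230 and 84.4 in ICC. Hoxb2 led the HoxB genes of pericytes, at 138 CPM in SI and 87.9 in LI. Hoxc8 was at 63.9 and 21.7 CPM in SI and LI muscle and 56.3 and 9.53 in pericytes. Hoxa5, needed for lung development, was at 45.0 and 14.7 CPM in pericytes and 123 and 13.2 in ICC. In these genes the SI level exceeded the LI level in each class named. Hoxc5 was called higher in SI in muscle and pericytes, at 13.3 and 13.97 CPM, against 1.94 and 0.733 in LI. In fibroblasts Hoxb5, Hoxb6 and Hoxb7 were at 16.6, 19.4 and 22.3 CPM in SI and 4.29, 5.47 and 7.40 CPM in LI.

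Hoxd8 and Hoxd4 went against their groups. Hoxd8 was higher in LI in each of the 4 classes, at 28.1 CPM against 8.35 in muscle, 27.1 against 9.17 in pericytes and 180 against 8.51 in ICC, while its paralogues Hoxb8 and Hoxc8 were called higher in SI in all 4. Hoxd4 was at 12.9 against 0.733 CPM in muscle, 11.7 against 1.31 in pericytes and 84.4 against 4.25 in ICC, while its paralogue Hoxc4 was called higher in SI. All HoxD genes called between libraries were thus called higher in LI, whatever their group.

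**Figure D3:**
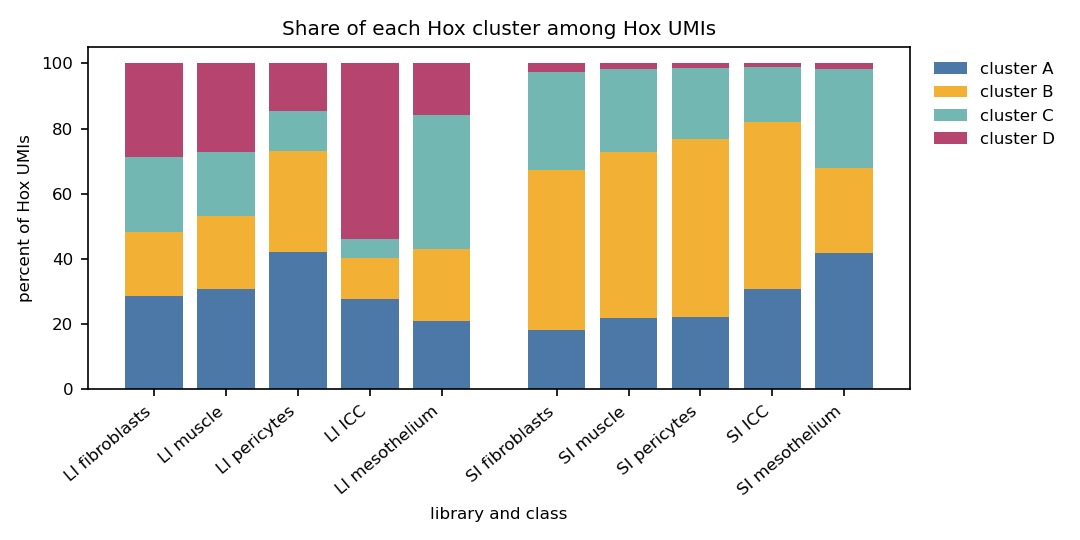
Percent of Hox UMIs supplied by the HoxA, HoxB, HoxC and HoxD clusters (stacked bars) in each stromal class of LI and SI. HoxD is the largest part in LI ICC (53.9%) and at most 2.53% in any SI class, where HoxB is the largest part in fibroblasts, muscle, pericytes and ICC.

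By cluster, HoxD supplied 28.8% of Hox UMIs in LI fibroblasts, 27.1% in muscle, 14.5% in pericytes and 53.9% in ICC. In SI it supplied 2.53%, 1.65%, 1.51% and 0.984%. HoxB made up the largest share of the 4 SI classes, at 49.3%, 50.9%, 54.7% and 51.2%. In male LI cells alone HoxD was at 44.1% in ICC and 42.6% in fibroblasts, and in female cells at 55.2% and 25.9%. HoxC was 23.0% in LI fibroblasts, 19.7% in muscle, 12.5% in pericytes and 6.02% in ICC. In male LI cells alone it was 10.6% in fibroblasts and 15.1% in pericytes, the other way round. LI mesothelium had the largest HoxC share of the LI classes, at 41.1% of Hox UMIs (31.1 to 51.6), and SI mesothelium was at 30.6% (19.6 to 43.6). Hoxc6, a gene of thoracic identity in the trunk, was at 155 CPM in LI mesothelium and 25.1 in LI fibroblasts. With 95 and 62 Hox UMIs in all, mesothelium allows no finer account.

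Between muscle and fibroblasts of a library, 0 of 16 Hox genes tested were called in either direction in LI or in SI. Of all genes 7.23% and 6.16% were called higher and lower in LI, and 8.03% and 7.65% in SI, so that few calls among 16 genes lie near the background. In SI Hoxa7 was 1.85-fold higher in muscle (1.64 to 2.10). In SI male cells alone it passed 2-fold, at 2.45 (1.96 to 3.06), as did Hoxb2, at 2.04 (1.73 to 2.40), and in LI male cells Hoxa5 did, from 2 UMIs in 23 muscle cells. The Hox total of muscle over that of fibroblasts was 1.07 (1.02 to 1.12) in LI and 1.20 in SI. Levels of Hoxd11 in LI were 36.7 CPM in fibroblasts and 38.2 in muscle, and those of Hoxa10 were 59.3 and 64.3. As a gauge of fibroblast RNA, Dcn, Lum, Dpt and C3 were at 27.4%, 24.7%, 16.7% and 12.7% of their fibroblast level in LI muscle. In SI muscle they were at 16.2%, 13.5%, 5.38% and 7.49%. Their bearing on the Hox ratios was not tested.

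Pericytes, the mural cells of capillaries, held more HoxA and HoxB and less HoxC and HoxD RNA than fibroblasts in LI, with sums at 1.89, 2.01, 0.698 and 0.648 of the fibroblast level. In male LI cells alone the HoxC direction turned, at 2.64 (1.30 to 4.83) from 11 UMIs in 19 pericytes, against 0.573 (0.461 to 0.703) in female cells. In LI 4 of 18 Hox genes were called higher in pericytes and 3 higher in fibroblasts, against 9.78% and 9.92% of all genes. Hoxa11 was 3.21-fold, Hoxb2 3.0-fold, Hoxa9 2.48-fold and Hoxa3 2.46-fold higher in pericytes. Hoxd11, at 10.99 against 36.7 CPM, was at 0.299 of the fibroblast level, Hoxc8 at 0.402 and Hoxd10 at 0.472. Hoxa11 was thus above and its paralogue Hoxd11 below the fibroblast level, while Hoxa10 (1.22, 0.989 to 1.497) and Hoxd9 (0.761, 0.561 to 1.012) had intervals that span 1. In SI 3 of 15 were called higher in pericytes, Hoxb2 (2.55-fold), Hoxa7 (2.40-fold) and Hoxb8 (2.32-fold), and 0 lower, against 8.23% and 9.5% of all genes. Hoxb2 was called in both libraries. In female cells LI Hoxa3, LI Hoxd10 (0.61) and SI Hoxa7 (1.89) no longer passed 2-fold, and in male cells LI Hoxb2 (1.83) and SI Hoxb8 (1.84) did not. Hoxc8 turned, at 5.28-fold above fibroblasts in male LI pericytes (1.03 to 17.2), from 3 UMIs. The 19 male LI pericytes put 12 further Hox genes past 2-fold higher, and the female ones put Hoxc10 past 2-fold lower. The male ones held only 73 Hox UMIs among 96082 in all, and the share of all genes past 2-fold in them was not computed. Dcn, Lum, Dpt and C3, read as a gauge of fibroblast RNA, were at 17.0%, 14.2%, 17.0% and 3.49% of their fibroblast level in LI pericytes. In SI pericytes they were at 8.39%, 6.25%, 6.83% and 11.5%. Their bearing on the Hox ratios was not tested.

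ICC carried more RNA of most Hox genes than fibroblasts of the same library. In LI 13 of 19 were called higher in ICC and 0 higher in fibroblasts, against 12.6% and 7.98% of all genes. In SI it was 13 of 16 and 0, against 19.3% and 17.6%. The median log2 ratio of ICC over fibroblasts was 1.58 for the Hox genes and 0.34 for all genes in LI, and 1.53 and 0.21 in SI. Over all Hox genes the sum was 3.58-fold (3.42 to 3.74) that of fibroblasts in LI and 2.58-fold (2.29 to 2.89) in SI. Across 12 other ways of choosing cells or summing, among them female or male cells alone, this ratio ranged from 2.85 to 3.88 in LI and from 2.26 to 2.67 in SI. Of the 13 LI calls 13 passed 2-fold in female cells alone and 9 in male cells alone, where Hoxa7, Hoxb3, Hoxb5 and Hoxd10 did not. Of the 13 SI calls 11 passed in female cells, without Hoxa2 and Hoxc6, and 9 in male cells, without Hoxa7, Hoxb2, Hoxb3 and Hoxb4.

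**Figure D4:**
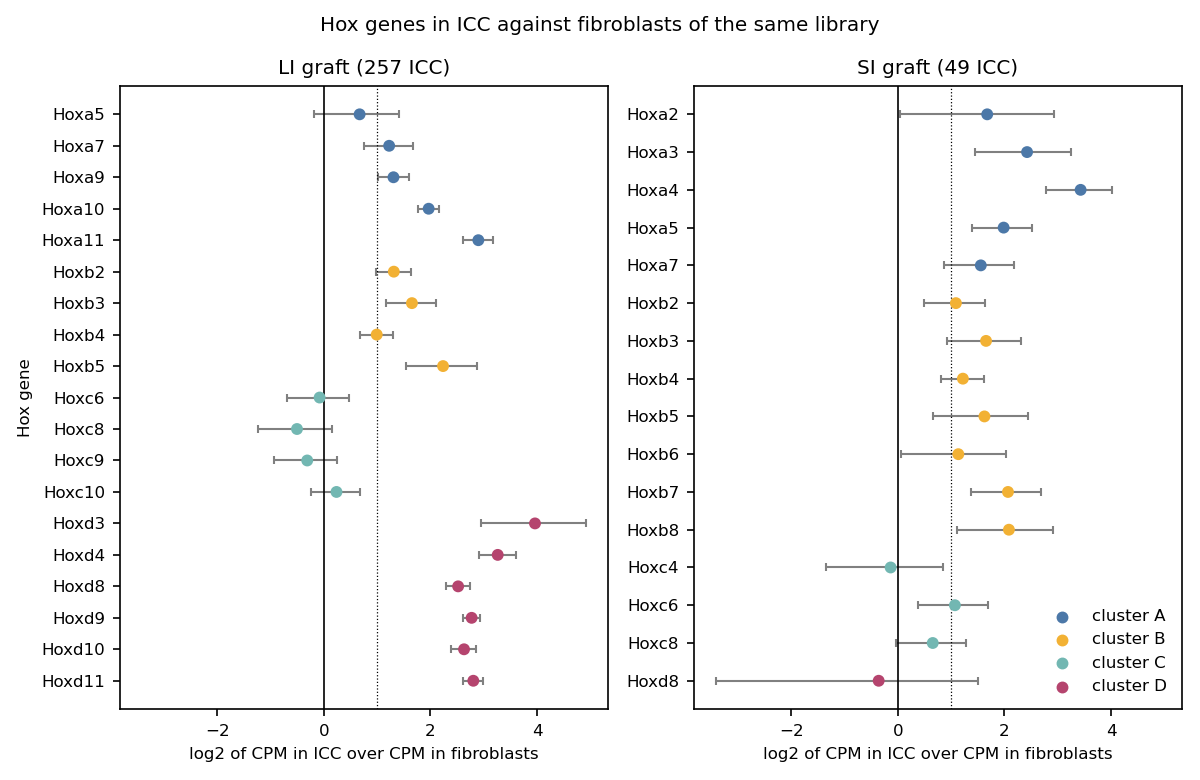
Log2 fold of ICC over fibroblasts for each Hox gene at 10 CPM or more in either class, with 95% counting intervals, in LI and SI; the dotted line marks 2-fold. The 6 HoxD genes and Hoxa11 stand furthest right in LI, followed by Hoxb5 and Hoxa10, and Hoxa4 and Hoxa3 stand furthest right in SI.

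The 13 of LI were 6 HoxD, 4 HoxA and 3 HoxB genes, and the 13 of SI were 7 HoxB, 5 HoxA and 1 HoxC genes. They shared 4 genes, Hoxa7, Hoxb2, Hoxb3 and Hoxb5, which are 30.8% of each list. Over all genes 588 calls were shared, 49.6% of those in LI and 32.3% of those in SI. Only 9 Hox genes reached the minimum level in both libraries. Hoxa4 was at 2.64 CPM in LI ICC, below it, and Hoxb4 was at 1.99-fold in LI. In LI ICC Hoxd11 was at 257 CPM against 36.7 in fibroblasts (6.99-fold, 6.13 to 7.95), Hoxd9 at 323 against 47.2 (6.84-fold, 6.09 to 7.67) and Hoxa11 at 114 against 15.3 (7.46-fold, 6.11 to 9.07). Hoxd8 was 5.74-fold, Hoxd10 6.19-fold and Hoxa10 3.91-fold higher. The ratios of Hoxd11 and Hoxd9 differed by sex, whereas that of Hoxa10 was not lower in male cells. Its log2, with 1 CPM added, was 2.18 there and 1.95 in all cells. In male LI cells (32 ICC) Hoxd11 was 3.04-fold (2.09 to 4.30) and Hoxd9 2.62-fold (1.46 to 4.39) above fibroblasts, and in female cells (202 ICC) 9.72-fold (8.36 to 11.3) and 7.81-fold (6.90 to 8.82). Hoxd4 (9.60-fold) and Hoxd3 (15.6-fold, 7.74 to 30.2) showed the largest ratios, and they are the genes whose exons overlap other features. The HoxD sum was 6.70-fold (6.28 to 7.14) that of fibroblasts, the HoxA sum 3.45-fold and the HoxB sum 2.28-fold, while the HoxC sum was 0.937 of it (0.781 to 1.12). The HoxD ratio was 8.23 (7.67 to 8.83) in female and 2.95 (2.36 to 3.66) in male cells, in which the HoxA ratio was 3.71.

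In SI all 16 genes that reached the minimum level were of groups 1 to 8, so calls could fall only there. Hoxa4 was at 106 CPM (25 UMIs) against 9.86 in SI fibroblasts, a ratio of 10.8 (6.86 to 16.3). With a minimum of 1000 genes and at most 5% mitochondrial UMIs its log2 ratio, with 1 CPM added, fell to 2.07 from 3.31. Hoxa3 was 5.37-fold, Hoxb8 4.24-fold, Hoxb7 4.19-fold and Hoxa5 3.96-fold higher. Hoxb4, the highest gene of SI ICC, was 2.33-fold above fibroblasts, and 1.73-fold (0.692 to 3.58) in the 9 male ICC, below the threshold. Sums by cluster in SI ICC were 4.40-fold for HoxA, 2.67-fold for HoxB, 1.46-fold for HoxC and 1.0-fold (0.205 to 2.95) for HoxD, which rests on 3 UMIs.

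Across the 4 classes of LI, ICC had the highest level of 13 of 20 genes at 10 CPM or more in LI, 9 of them with an interval apart from the next class. Of all 10048 genes at that level ICC led for 48.8%, and for 13.8% with intervals apart. Pericytes led for 4, fibroblasts for 2 and muscle for 1, none with intervals apart. In SI ICC led for 13 of 17, 7 with intervals apart, against 44.1% and 9.57% of all genes, and fibroblasts and pericytes led for 2 each. Over all cells Hoxc8 and Hoxc9, both highest in LI fibroblasts, and Hoxc6, highest in LI muscle, were the HoxC genes that went against the ICC lead in LI. In female cells alone Hoxc6 was highest in fibroblasts, at 30.7 CPM, against 28.7 in ICC and 27.8 in muscle. In male LI cells Hoxc6, Hoxc8 and Hoxc9 were at least 2-fold higher in the 19 pericytes than in fibroblasts.

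The difference also stood in single cells. For this, UMIs were drawn at random down to 2000 per cell, without cells of fewer UMIs. LI ICC then held a mean of 3.01 Hox genes per cell, against 1.05 in fibroblasts, 1.11 in muscle and 1.19 in pericytes. In SI the means were 2.61, 0.979, 1.17 and 1.31. Without thinning they were 5.11, 2.90, 2.58 and 2.47 in LI and 4.57, 2.72, 2.98 and 2.53 in SI. A UMI of Hoxd9, Hoxd10 or Hoxd11 was found in 70.0% (63.9 to 75.7) of LI ICC, 19.3% of fibroblasts, 17.6% of muscle cells and 7.29% of pericytes, and in 0 of 16 immune cells, which allows a share of up to 20.6% (exact interval; 18.8% by the limit of 3 counts). The share in fibroblasts lies between these limits, and those in muscle cells and pericytes lie below both. Before thinning the immune cells had a median of 3887 UMIs and LI ICC 3963. Since immune cells were chosen with few Dcn and Lum UMIs, these limits can understate free RNA.

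Fibroblasts were split by markers of the subsets named in the intestine. In LI and SI there were 1173 and 580 Fgfr2+ cells (Fgfr2, Adamdec1), 645 and 570 PDGFRAhi cells (Bmp3, Bmp5, Bmp7), which lie beneath the epithelium, 696 and 1180 CD81+ cells (Grem1, Ackr4) and 525 and 170 Pi16+ cells (Pi16, Dpp4). Since 625 of the LI and 495 of the SI PDGFRAhi cells also met the Fgfr2 gate, the PDGFRAhi gate was applied first, a choice made after seeing the data. In LI the Hox totals were 560, 642, 465 and 531 CPM in the order given, and in SI 643, 652, 434 and 395 CPM. Over all LI cells PDGFRAhi cells held the most Hox RNA. The lowest place in LI turned with sex, with CD81+ and Pi16+ cells at 535 and 554 CPM in female cells and at 387 and 372 CPM in male cells, where the intervals of the pair overlapped in each sex. In SI, Fgfr2+ and PDGFRAhi cells lay above CD81+ and Pi16+ cells, and within each of these pairs the intervals overlapped.

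Posterior groups made up 63.5% and 62.1% of Hox UMIs in LI Fgfr2+ and PDGFRAhi cells, 54.2% in CD81+ and 43.8% in Pi16+ cells. Single genes ordered the LI subsets differently. Hoxb2 was at 10.5 CPM in Fgfr2+, 20.1 in PDGFRAhi, 38.7 in CD81+ and 43.2 in Pi16+ cells of LI. Hoxc8 was at 10.4 CPM in CD81+ and 50.8 CPM in Pi16+ cells, the lowest and the highest. In female cells alone CD81+ (13.9) and Fgfr2+ cells (15.3) lay close together below Pi16+ cells (57.8), and in male cells PDGFRAhi cells were lowest, at 4.51 CPM from 1 UMI, and Fgfr2+ cells highest, at 26.4 CPM from 3. Hoxd11 was at 37.7, 36.8, 42.9 and 22.6 CPM in the same order of subsets. In female cells alone it was at 38.2, 34.9, 27.8 and 15.9 CPM, so that CD81+ cells were no longer highest. In male cells it was at 44.05, 40.6, 58.6 and 81.9 CPM, the first from 5 UMIs and the second from 9. Pi16+ cells, lowest in female cells, were thus highest in male cells. In SI, Hoxa5 was at 67.8 CPM in Fgfr2+, 39.04 in PDGFRAhi, 16.8 in CD81+ and 17.3 in Pi16+ cells. Hoxd8, the only HoxD gene at 10 CPM in SI fibroblasts, was at 28.0 CPM in PDGFRAhi and 6.62 in CD81+ cells. SI Pi16+ cells had the highest posterior share of the SI subsets, with groups 9 to 13 at 7.12% of Hox UMIs (5.22 to 9.44), Hoxc9 at 12.8 CPM and Hoxc10 at 8.96 CPM, against 0 UMIs of Hoxc10 in the 3 other SI subsets. SI posterior UMIs lay partly in barcodes with kidney RNA (below), and the subset shares were not computed without those barcodes. The SI Pi16+ value rests on female cells, with 39 posterior UMIs and a share of 13.2% (9.54 to 17.6), among them all 14 of Hoxc10. Male Pi16+ cells held 5, a share of 2.11% (0.688 to 4.85), below the 3.3% of male PDGFRAhi cells (2.17 to 4.8). In LI, too, the posterior share of Pi16+ cells was 42.1% in female and 61.5% in male cells, that of CD81+ cells 52.3% and 55.8%, that of PDGFRAhi cells 62.4% and 53.3% and that of Fgfr2+ cells 63.3% and 75.0%, so that PDGFRAhi cells, with 105 Hox UMIs, were the lowest of the male subsets. The subsets differed in sex as well: of the cells whose sex could be told (below), male cells made up 33.4% in LI CD81+ and 1.68% in LI Fgfr2+ cells.

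Cells of both sexes come from different embryos, so sex marks embryos here and the pair cannot be told apart. Female cells had an Xist UMI and no UMI of Ddx3y, Eif2s3y, Kdm5d or Uty, and male cells the reverse. LI fibroblasts comprised 463 male and 3806 female cells, and SI fibroblasts 969 and 2247. In LI 1 of 16 Hox genes was called higher in male and 5 higher in female fibroblasts, against 4.0% and 8.69% of all genes. Those higher in female cells were Hoxa9 and 4 HoxC genes. Subsets moved with sex: 41.5% of male and 10.0% of female LI fibroblasts were CD81+ and 4.1% and 29.2% were Fgfr2+. Hoxc8 was at 5.91 CPM in male and 28.5 in female cells, Hoxc6 at 6.35 and 30.7, Hoxc9 at 8.10 and 34.2, and Hoxc4 at 2.41 and 10.0. Hoxd11 went the other way, at 65.5 and 28.9 CPM (2.27-fold, 1.97 to 2.60). The sexes were also compared within the LI subsets, a comparison added after seeing the data. Hoxc8 in male cells was at 0.361 of the female level in CD81+ cells (0.153 to 0.762), 0.165 in Pi16+ cells (0.0532 to 0.39), 0.131 in PDGFRAhi cells (0.0033 to 0.745) and 1.72 in Fgfr2+ cells (0.348 to 5.21), the last from 3 male UMIs. Hoxd11 was at 2.11 in CD81+ cells (1.55 to 2.88) and 5.15 in Pi16+ cells (3.46 to 7.56), and at 1.16 in PDGFRAhi (0.52 to 2.28) and 1.15 in Fgfr2+ cells (0.371 to 2.73), where the intervals span 1. Hoxb2 was at 1.08 (0.781 to 1.48) in CD81+, 1.07 (0.669 to 1.63) in Pi16+ and 2.46 (1.07 to 4.99) in PDGFRAhi cells, against 1.49 over all LI fibroblasts, and had 0 UMIs in male Fgfr2+ cells. HoxD supplied 42.6% of the Hox UMIs of male and 25.9% of those of female LI fibroblasts.

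In SI 1 of 15 was called higher in male fibroblasts and 0 higher in female ones, against 1.43% and 0.655% of all genes. It was Hoxc8, at 78.9 CPM in male and 36.7 in female fibroblasts (2.15-fold). The same gene was at 83.7 and 31.5 CPM in SI muscle (2.66-fold) and 84.4 and 31.1 CPM in SI pericytes (2.72-fold). Male fibroblasts thus had less Hoxc8 than female ones in LI and more in SI. In LI pericytes it was at 31.2 CPM in male cells, from 3 UMIs, and 7.13 in female cells. Calculated on one sex alone, the share of groups 9 to 13 was 54.7% in female and 58.7% in male LI fibroblasts, and 1.08% and 1.80% in SI, so that contrast also stood within each sex.

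**Figure D5:**
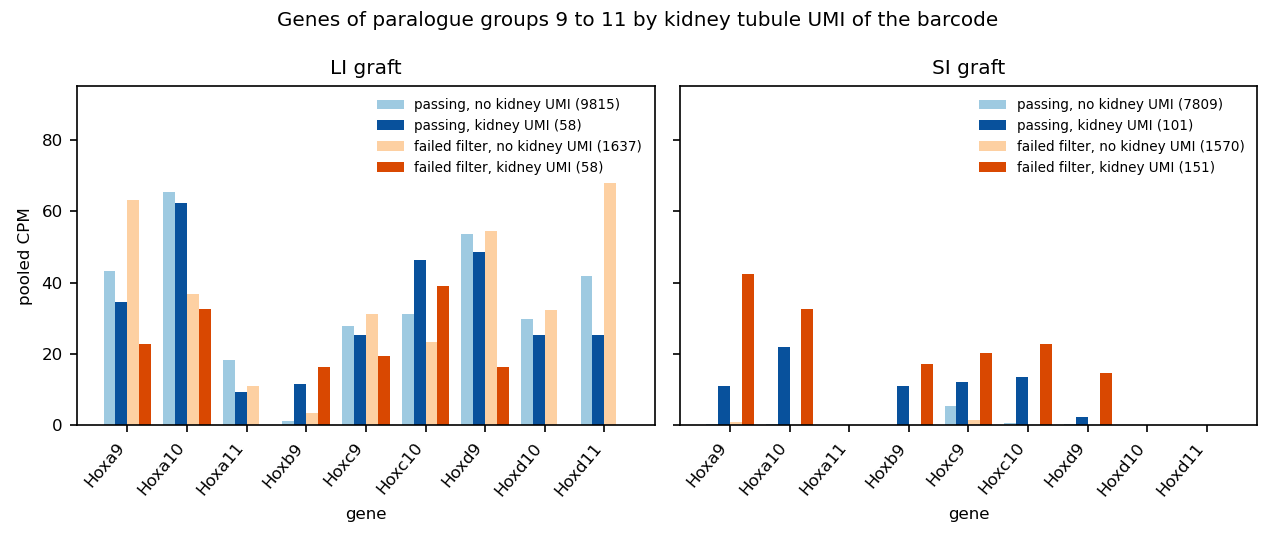
Pooled CPM of 9 posterior genes in barcodes that passed or failed the filter, with and without a UMI of the kidney tubule genes Lrp2, Slc34a1 or Pax8, in LI and SI. SI barcodes with a kidney UMI hold Hoxa9, Hoxa10, Hoxb9, Hoxc9, Hoxc10 and Hoxd9, and have Hoxa11, Hoxd10 and Hoxd11 at 0.

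The little posterior RNA of the SI library lay partly with RNA of the host organ. SI barcodes that passed and held a UMI of Lrp2, Slc34a1 or Pax8 numbered 101, and groups 9 to 13 summed to 72.2 CPM in them (55.0 to 93.1), against 7.67 CPM in the 7809 without, of which 5.59 CPM was Hoxc9. Hoxa11, Hoxd10 and Hoxd11 had 0 UMIs in the 101. Of 31 passing SI barcodes with at least 2 UMIs of groups 9 to 13 other than Hoxc9, 10 (32.3%) held a kidney UMI, against 1.28% of all passing SI barcodes, 22 a UMI of Pi16, Dpp4 or Sfrp4, against 13.7%, and 31 an Xist UMI, against 58.0%. Leaving out all barcodes with a kidney UMI, an alternative added after seeing the data, moved none of 84 values beyond its interval.

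Partners and neighbours of the Hox genes were read in fibroblasts, by the same 2-fold rule. Of 9 TALE genes, whose products bind DNA together with Hox proteins, 8 reached 10 CPM in fibroblasts and 0 differed 2-fold between libraries there, where 1.8% and 1.73% of all genes were called higher in LI and in SI, so that 0 of 8 lies at the background. The next lists are too short to be read against these shares either. Meis2 was at 369 CPM in LI and 300 in SI fibroblasts, 1082 and 919 in ICC, and 121 and 67.2 in pericytes, so it was highest in ICC like the Hox sum. None of the 6 ParaHox genes, among them Cdx2 of the gut epithelium, reached 10 CPM. Of 12 genes beside the clusters 9 were measured and 4 reached 10 CPM, and 1 was called higher in SI, Skap2 next to HoxA, at 23.9 CPM in LI and 49.5 in SI. Of 8 noncoding genes of the clusters 2 reached it, Hotairm1 (6.22 and 14.02 CPM), which was called higher in SI, and Hoxb3os (5.07 and 10.9 CPM), which was not. Hoxb5os, below that level in fibroblasts, was at 58.9 CPM in LI ICC against 6.37 in LI fibroblasts and 42.5 against 4.16 in SI, on the side of the HoxB genes beside it.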

How the data were processed

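The authors aligned reads to mm10 with Cell Ranger 3.1.0 (submitters' processing notes, which also name Seurat 3) and deposited raw UMI counts per gene and barcode for each library. The annotation release is not given in the sources used here. No column of another series was used (0 columns). Single values of 1 gene of the Hox set and 1 of the TALE list are not reported here, and both stay in sums and counts. The 39 Hox genes, the marker gates and the other gene lists were chosen with earlier results of these data known.

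Barcodes with at least 500 genes and at most 10% mt- UMIs were kept and assigned to 5 classes by marker UMIs, and a cell that met more than 1 gate was left out (60 in LI, 17 in SI). All gates required no UMI of Ptprc, Pecam1, Cdh5 and Epcam. A gene's UMIs were summed per class and scaled to the class total (CPM). CPM carry exact Poisson 95% intervals, shares exact Clopper-Pearson intervals and ratios intervals based on the exact binomial division of the gene's UMIs. With 1 library per group no p-value was computed. A gene counted as different at an absolute log2 ratio of at least 1 with a pseudocount of 1 CPM and at least 10 CPM in either sum. For a count of 0 the limit is 3 counts. Doublets were not removed in the values given. As an alternative, the barcodes with the highest Scrublet scores (scanpy 1.11.5) were removed at 0.8% per 1000 barcodes, 1071 (9.26%) in LI and 742 (7.7%) in SI. The PDGFRAhi gate order, the omission of barcodes with kidney RNA and the comparisons by sex of single-gene calls and within fibroblast subsets were chosen after seeing the data.

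Genes named are those at 10 CPM or more in a class of at least 50 cells, all of group 13, and any that departed from its cluster or paralogue group. Of the other lists, genes at 10 CPM or more in fibroblasts were named by rule, and Hoxb5os and Meis2 in ICC and pericytes were chosen after their values were seen. Scripts (scipy 1.17.1, numpy 2.4.6 and pandas 2.3.3 under Python 3.11.15, matplotlib 3.10.9, and edgeR 4.0.16 under R 4.3.3 for TMM factors) were tested on simulated counts. For fibroblasts (8428 genes) 94 of 94 genes changed by a log2 of 1 and 106 of 106 changed by 2 were recovered in direction, and for ICC (8960 genes) 81 of 85 and 115 of 115, but only 60 and 70 of these ICC genes came within a log2 of 0.5 of the true change, as did 6004 of 8760 unchanged ones.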

Additional observations from a re-analysis of the deposited data

Results flagged for a closer look

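The male over female contrast of fibroblasts went in opposite directions in LI and SI for 4 Hox genes at 10 CPM or more, with intervals that leave out 1 in both libraries. The share of all genes that do so was not computed, so the count cannot be read as a trait of the Hox genes. Hoxc8 was 0.2071 of the female level in LI male cells and 2.151-fold in SI male cells. Hoxc6 was at 0.2066 in LI and 1.255 in SI. Hoxb2 was at 1.494 in LI and 0.8768 in SI, and Hoxd8 at 1.211 in LI and 0.6798 in SI. With 1 library each the difference was not tested, and sex cannot be told apart from the embryos pooled. In LI the subsets moved with it, with 41.5% of male and 10.0% of female fibroblasts CD81+, and the contrast differed by gene within subsets. Hoxc8 was at 0.361 and Hoxc6 at 0.138 of the female level within CD81+ cells, and at 0.165 and 0.0519 within Pi16+ cells. Hoxb2 was at 1.08 (0.781 to 1.48) and 1.07 (0.669 to 1.63) there and at 2.46 (1.07 to 4.99) within PDGFRAhi cells, and Hoxd8 at 1.32 (0.927 to 1.87) and 1.87 (1.08 to 3.08).

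Barcodes that failed the filter were outside the comparisons. Those with a kidney tubule UMI held groups 9 to 13 at 146.3 CPM in LI (58 barcodes) and 149.6 CPM in SI (151 barcodes), against 2.46 CPM in the 1570 SI barcodes that failed without such a UMI. In LI it was the other way, with 334.6 CPM in the 1637 that failed without one. In SI the median share of mitochondrial UMIs was 24.6% and 19.9%. Hoxa11, Hoxd10 and Hoxd11 were at 0 in the failed barcodes with a kidney UMI in both libraries.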

How the results depend on the processing

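Of 1018 values computed again under 19 alternatives, 886 stayed and 132 moved. To stay meant within the interval, within 1.5 times for a count, or within the standard deviation over cells for Hox genes per cell, a wide limit. Most are totals, shares and counts, which have no sign. Orders turned in male LI cells, with muscle over fibroblasts at 0.952 (0.729 to 1.22) for the Hox total and pericytes over fibroblasts at 2.64 for HoxC, and in female SI cells, with the Hox total of 3 mesothelial cells at 1435 CPM and that of ICC at 1369 CPM. Other gates and filters, edgeR TMM factors, a pseudocount of 5 CPM, thinning to 1000 UMIs, the 26 shared barcodes and the kidney UMIs were tried. ICC had the highest Hox total of fibroblasts, muscle, pericytes and ICC under each of the 12 alternatives that chose cells or scaled sums. The 132 values that moved follow, and the cause was not tested. With cells that met several gates kept, the Hox total was 539 CPM in LI fibroblasts, 1710 CPM in LI ICC, 1137 CPM in SI ICC and 506 CPM in SI mesothelium. The HoxD share was 29.5% in LI fibroblasts. The number of Hox genes at the minimum level was 10 in SI mesothelium. With the mean of per-cell CPM in place of the pooled CPM, the Hox total was 569.6 CPM in LI fibroblasts, 598 CPM in LI muscle, 2083 CPM in LI ICC, 547 CPM in SI fibroblasts, 648 CPM in SI muscle and 749 CPM in SI pericytes. The share of groups 9 to 13 was 57.2% in LI fibroblasts and 1.09% in SI fibroblasts. The HoxA share was 29.6% in LI fibroblasts and 18.7% in SI fibroblasts. The HoxB share was 18.4% in LI fibroblasts. The HoxC share was 22.1% in LI fibroblasts. The HoxD share was 29.9% in LI fibroblasts and 2.86% in SI fibroblasts. Leaving mitochondrial and ribosomal genes out of the total, the Hox total was 634 CPM in LI fibroblasts, 672 CPM in LI muscle, 804 CPM in LI pericytes, 2202 CPM in LI ICC, 591 CPM in SI fibroblasts, 710.4 CPM in SI muscle, 811 CPM in SI pericytes and 1522 CPM in SI ICC. With female cells only, the Hox total was 563 CPM in LI fibroblasts, 2174 CPM in LI ICC, 513 CPM in SI fibroblasts and 1435 CPM in SI mesothelium. The share of groups 9 to 13 was 54.7% in LI fibroblasts, 1.08% in SI fibroblasts and 0.526% in SI muscle. The HoxC share was 25.7% in LI fibroblasts, 25.0% in SI fibroblasts, 19.4% in SI muscle and 19.2% in SI pericytes. The HoxD share was 25.9% in LI fibroblasts and 0% in SI mesothelium. The HoxA share was 20.5% in SI fibroblasts, 25.2% in SI muscle and 25.6% in SI pericytes. The HoxB share was 51.9% in SI fibroblasts and 53.7% in SI muscle. The number of Hox genes at the minimum level was 9 in SI mesothelium. With male cells only, the Hox total was 408 CPM in LI fibroblasts, 389 CPM in LI muscle, 759.8 CPM in LI pericytes, 1165 CPM in LI ICC, 472 CPM in SI fibroblasts, 576 CPM in SI muscle and 521 CPM in SI mesothelium. The share of groups 9 to 13 was 58.7% in LI fibroblasts, 58.7% in LI muscle, 1.80% in SI fibroblasts and 1.66% in SI muscle. The HoxA share was 24.4% in LI fibroblasts, 49.3% in LI pericytes, 31.8% in LI ICC, 14.5% in SI fibroblasts, 19.1% in SI muscle, 16.3% in SI pericytes, 25.0% in SI ICC and 61.5% in SI mesothelium. The HoxB share was 22.4% in LI fibroblasts, 18.5% in LI ICC, 46.0% in SI fibroblasts and 15.4% in SI mesothelium. The HoxC share was 10.6% in LI fibroblasts, 11.1% in LI muscle, 15.1% in LI pericytes, 37.3% in SI fibroblasts, 29.7% in SI muscle, 26.3% in SI pericytes and 26.8% in SI ICC. The HoxD share was 42.6% in LI fibroblasts, 36.5% in LI muscle, 6.85% in LI pericytes, 44.1% in LI ICC, 2.19% in SI fibroblasts and 0% in SI mesothelium. The number of Hox genes at the minimum level was 9 in LI mesothelium and 9 in SI mesothelium. Doubling the gate minimums, the HoxA share was 27.9% in LI fibroblasts. The HoxD share was 29.9% in LI muscle and 2.997% in SI fibroblasts. The HoxB share was 48.2% in SI fibroblasts. The HoxC share was 31.3% in SI fibroblasts. With classes set by the highest share of a longer marker list, the HoxC share was 21.97% in LI fibroblasts, 29.2% in SI fibroblasts, 27.2% in SI muscle and 12.4% in SI ICC. The Hox total was 601 CPM in LI muscle, 736 CPM in LI pericytes and 2015 CPM in LI ICC. The share of groups 9 to 13 was 55.0% in LI muscle and 1.56% in SI fibroblasts. The HoxB share was 18.4% in LI muscle and 48.9% in SI muscle. The HoxD share was 31.5% in LI muscle. The HoxA share was 37.3% in SI ICC. With a minimum of 20 CPM, the number of Hox genes at the minimum level was 10 in LI pericytes, 9 in SI muscle and 10 in SI mesothelium. With 1000 genes or more and no more than 5% mitochondrial UMIs, the Hox total was 1711 CPM in LI ICC. The HoxC share was 4.46% in LI ICC and 28.2% in SI ICC. The HoxA share was 14.1% in SI ICC. With the highest Scrublet doublet scores removed, the Hox total was 2038 CPM in LI ICC. With no minimum level, 14 Hox genes in place of 9 were at least 2-fold higher in LI fibroblasts. Without thinning, the Hox genes per cell were 2.90 in LI fibroblasts, 2.58 in LI muscle, 2.47 in LI pericytes, 5.11 in LI ICC, 2.72 in SI fibroblasts, 2.98 in SI muscle, 2.53 in SI pericytes and 4.57 in SI ICC. Among single genes, 12 log2 ratios of ICC over fibroblasts moved. For Hoxd9 in LI it was 2.59 with the stricter filter, 2.55 with cells of several gates, 2.94 in female and 1.36 in male cells. For Hoxd11 in LI it was 2.57 with cells of several gates, 3.24 in female and 1.59 in male cells. For Hoxa10 in LI it was 1.70 with cells of several gates and 2.18 in male cells, and for Hoxb4 in LI 1.30 in male cells, which passed 2-fold. In SI it was 2.07 for Hoxa4 with the stricter filter and 0.78 for Hoxb4 in male cells, which lost its call. No paired analysis was possible because the labels give 1 library per group and no replicate numbers, so leaving out a replicate could not be done either. Depth limits the 49 SI ICC, in which 3 UMIs are 12.8 CPM, and mesothelium, where 3 UMIs are 27.3 CPM in LI and 37.8 CPM in SI. Kit, graft pool and embryo cannot be told apart from the tissue of origin.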
